A study of Mus musculus with 2 samples.

Results

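Microglia and the macrophages of the brain's borders were followed through 36 genes, chosen by name and matched by Ensembl identifier, out of 43346 genes measured in newborn mouse forebrain. All 36 were found in the tables. The tissue was forebrain of mice of strain B6NTac;B6NCrl/Lap at postnatal age 0 days, healthy, untreated as far as the labels say, with males and females pooled. Total RNA depleted of ribosomal RNA was sequenced in 2 stranded libraries, called biological replicates 1 and 2. Replicate 1 came from 15 mice and replicate 2 from a pool whose size the labels do not give. The labels call them independent isolates but give both the same donor identifier, so every SD describes only the spread between these isolates, which may be technical. Each p-value covers the counting error of reads alone and includes no estimate of the spread between isolates. With 1 group (n = 2 libraries) and no second condition, members were compared with each other and from one isolate to the other.

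Microglia are the resident macrophages of brain tissue. They enter the brain in the embryo from the yolk sac, depend on the receptor Csf1r and its ligands Csf1 and Il34, and clear dying cells and prune synapses around birth. Related macrophages live in the meninges, around vessels and in the choroid plexus, and express Mrc1, Pf4, Lyve1, Cd163 and F13a1. A further state is known from the early postnatal white matter, in which microglia express Spp1, Gpnmb, Clec7a, Lpl and Lgals3. The members were therefore divided into 9 microglia-enriched (homeostatic) genes, 17 genes shared by most macrophages, 5 genes of the activated postnatal state and 5 genes of border macrophages.

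The gene tables summed to 62516003 and 65912060 expected counts in replicates 1 and 2. A count of 0 allows up to 3 counts of these totals. This floor and all counting intervals cover counting error only, since PCR copies could not be told from separate molecules. Levels are given as coding TPM, that is, TPM multiplied in each library so that the protein-coding genes have the same total, a scale per transcript length on which genes can be compared. Markers of nervous tissue were high, with a median of 674 ± 30.8 coding TPM (SD, n = 2 libraries) over 6 neuronal genes. Of the defining microglial markers, Cx3cr1, P2ry12, Tmem119, Fcrls, Siglech and Sall1 were all above 1 coding TPM in both libraries. Cd3e and Cd3d of T cells and Elane of neutrophil precursors had 0 counts in both libraries, and Ccr2 of monocytes had 1 and 6 counts in replicates 1 and 2. Some other leukocyte genes were present at low counts, such as S100a8 of neutrophils at 34 and 76. In bulk tissue, fewer cells of a type and less RNA per cell cannot be told apart.

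All 36 members were detected, with 18 to 2131 counts per library, and 34 reached 1 coding TPM in both libraries. The mean levels spanned 56.6-fold. The exceptions were Clec7a at 0.812 and 2.04 and Gpnmb at 0.886 and 1.27 coding TPM in replicates 1 and 2. The order of the members was alike in both libraries, with Spearman's rho of 0.92 across the 36 genes, which share a library and are not independent. Of the 35 neighbouring pairs in the order of mean level, only 5 had library values that did not overlap. These were C1qc over C1qb, C1qa over Pf4, Pf4 over Laptm5, Cx3cr1 over Sall1, and P2ry12 over Siglech. This compares the level values alone. In replicate 1 the deposited bounds of TPM, on the coding scale, overlapped for P2ry12 (5.88 to 7.47) and Siglech (5.10 to 7.83). They also overlapped there for Pf4 (22.1 to 29.4) and Laptm5 (16.6 to 23.6). The other 30 neighbours did not differ beyond their spread.

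**Figure D1:**
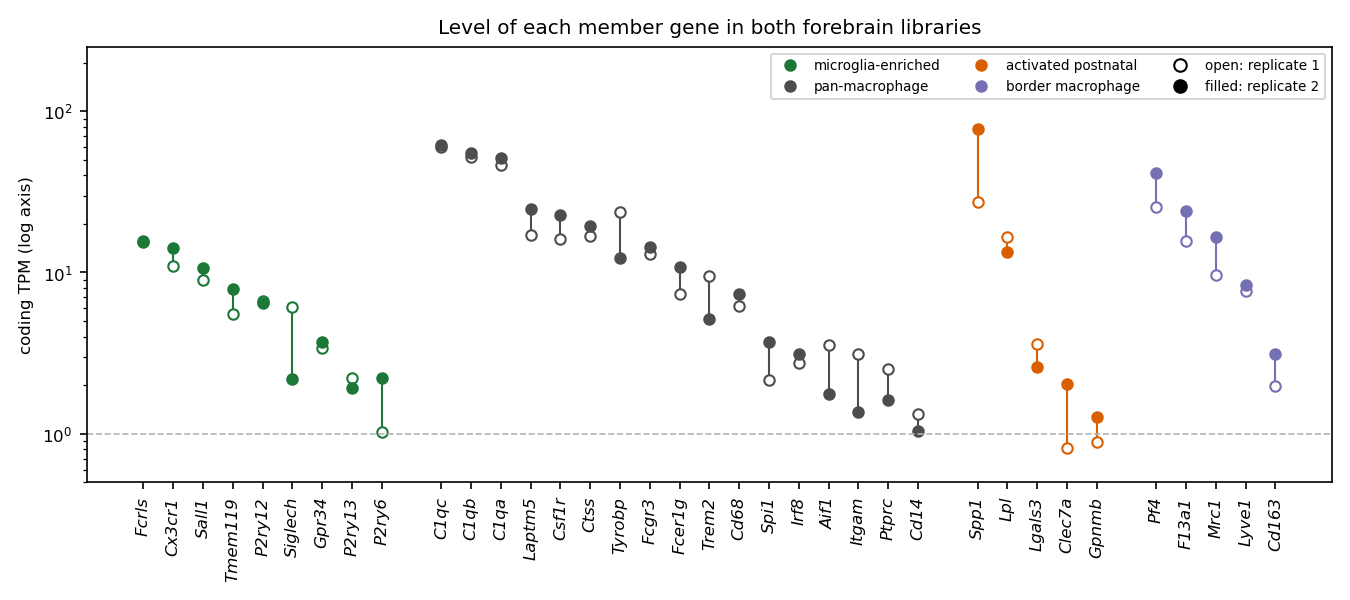
Level of each of the 36 members in coding TPM (log axis), by class, with replicate 1 as open and replicate 2 as filled points joined by a line; the dashed line is 1 coding TPM. The C1q genes lie between 46.2 and 62.1 with nearly equal values in both libraries, Spp1 goes from 27.5 to 77.5, and Siglech and Tyrobp also have long lines.

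The complement genes C1qa, C1qb and C1qc were high members with nearly equal levels in both libraries. They encode the chains of C1q, the recognition molecule of the classical complement pathway, which in developing brain marks synapses for removal. C1qc stood at 60.0 and 62.1 coding TPM in replicates 1 and 2, C1qb at 52.3 and 54.8, and C1qa at 46.2 and 51.1. The order C1qc, C1qb, C1qa was the same in both libraries, and C1qc lay above 83.5% of protein-coding genes. The 3 genes sit side by side on the minus strand of mm10 chromosome 4, C1qb at 136880129 to 136886187, C1qc at 136889804 to 136893065 and C1qa at 136895917 to 136898803. Only 3616 bases separate C1qb from C1qc and 2851 separate C1qc from C1qa. Their TPM ratios were close to 1, as follows for replicates 1 and 2. C1qa over C1qb was 0.884 and 0.931, and the deposited bounds of TPM allow 0.776 to 1.01 and 0.824 to 1.05, so these genes were not separable by the bounds. C1qb over C1qc was 0.872 (bounds 0.772 to 0.979) and 0.883 (0.789 to 0.986), and C1qa over C1qc 0.771 and 0.822, so C1qc exceeded both partners within the bounds. The proteases that join C1q in the C1 complex were far lower. Their genes C1s1 and C1ra had 2.31 ± 0.70 and 0.724 ± 0.71 coding TPM, and C3, a later component of the cascade, had 1.30 ± 0.041.

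The 9 microglia-enriched genes had a median of 6.13 coding TPM in replicate 1 and 6.45 in replicate 2 (6.29 ± 0.225, SD, n = 2). Fcrls, an Fc receptor-like gene of mouse microglia, was highest at 15.4 and 15.6. Cx3cr1, the receptor of the neuronal chemokine Cx3cl1, had 10.9 and 14.1, and Sall1, a transcription factor of microglial identity that neural progenitors also express, had 9.01 and 10.7. The libraries gave Fcrls nearly the same level, while the Cx3cr1 and Sall1 values were higher in the second library on this scale. For these genes the scale ran higher in replicate 2 than the scaled counts described below. Those gave Sall1 a log2 ratio of 0.09 (-0.03 to 0.21). Tmem119, a surface marker of mature microglia, stood at 5.54 and 7.90, and P2ry12, the ADP receptor that guides process movement, at 6.65 and 6.45. These marker levels overlapped, with a Tmem119 over P2ry12 ratio of 0.833 in replicate 1 and 1.23 in replicate 2. P2ry12 exceeded its neighbour P2ry13, another ADP receptor, by TPM ratios of 3.00 (bounds 2.25 to 4.17) and 3.38 (2.49 to 4.61). These receptor genes lie in tandem on the minus strand of mm10 chromosome 3, P2ry13 at 59207892 to 59210882 and P2ry12 at 59216272 to 59262871, with 5389 bases between them. P2ry6, the UDP receptor linked to uptake of debris, was the lowest of the class at 1.03 and 2.22, from 37 and 89 counts. P2ry12 over P2ry6 was 6.43 in replicate 1 and 2.90 in replicate 2, with bounds of 4.36 to 10.5 and 2.13 to 4.09 that do not overlap between libraries. Gpr34, a lysophosphatidylserine receptor, had 3.40 and 3.72, and P2ry13 had 2.22 and 1.91.

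Siglech, a sialic acid-binding receptor gene of microglia, differed more in level than in counts. It had 6.13 and 2.18 coding TPM but 124 and 89 counts. The mean transcript length given for the gene was 1170 nt in replicate 1 and 1950 nt in replicate 2. In replicate 1 the transcript Siglech-208 of 833 nt held 58.1% of the gene's TPM, and in replicate 2 it held 0%, with Siglech-201 of 2138 nt leading at 43.0%. The groups of reads behind these shares were small, at 45.72 and 0 counts for Siglech-208.

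Genes shared by most macrophages had a median of 9.53 and 10.8 coding TPM over 17 members (10.1 ± 0.873). Below the C1q genes came the lysosomal membrane gene Laptm5 (20.8 ± 5.36), the growth factor receptor Csf1r (19.4 ± 4.70), the cysteine protease gene Ctss (18.1 ± 1.92) and Tyrobp (17.9 ± 8.04), which encodes the signalling adaptor of Trem2. Fcgr3, a low-affinity IgG receptor, had 13.7 ± 0.818, and Fcer1g, the adaptor chain of Fc receptors, 9.07 ± 2.39. The lipid-sensing receptor Trem2 had 7.35 ± 3.08 and the lysosomal marker Cd68 had 6.80 ± 0.847. The low end held the transcription factors Spi1 (PU.1) and Irf8, at 2.93 ± 1.12 and 2.93 ± 0.283, the actin-binding marker Aif1 (Iba1) at 2.66 ± 1.25, the integrin gene Itgam (CD11b) at 2.23 ± 1.23, the phosphatase gene Ptprc (CD45) at 2.07 ± 0.62 and the endotoxin coreceptor Cd14 at 1.19 ± 0.201. The common tissue stains for microglia, Aif1 and Itgam, thus had far fewer transcripts than C1q. The Tyrobp over Trem2 ratio was steady, at 2.48 and 2.37. Tyrobp over Fcer1g was not, at 3.20 (bounds 2.03 to 4.47) and 1.14 (0.721 to 1.63).

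Among the members, border macrophage genes stood no lower than the microglia-enriched class. Their median was 9.60 coding TPM in replicate 1 and 16.5 in replicate 2 (13 ± 4.87, 5 genes). In lists of further genes the order was the reverse. There 12 border macrophage genes had a median of 0.701 and 1.2, against 6.68 and 6.72 over 18 microglial genes. Pf4, a chemokine gene also made by megakaryocytes, led at 25.5 and 41.3. F13a1, a transglutaminase, had 15.6 and 24.0, Mrc1, the mannose receptor CD206, 9.60 and 16.5, Lyve1, a hyaluronan receptor shared with lymphatic endothelium, 7.68 and 8.31, and Cd163, the haptoglobin-haemoglobin scavenger receptor, 1.99 and 3.13. All 5 were higher in replicate 2 on this scale, with Lyve1 nearly equal. By the scaled counts described below, Lyve1 was not higher, at a log2 ratio of -0.05 (-0.24 to 0.15). Mrc1 over P2ry12 was 1.44 (bounds 1.22 to 1.74) in replicate 1 and 2.56 (2.17 to 3.00) in replicate 2, so Mrc1 was above P2ry12 in both but by an unequal amount. Cd163 stayed a small and steady part of Mrc1, at ratios of 0.208 and 0.19. Platelet markers were low beside Pf4, with 4 and 8 counts of Ppbp and 0 and 5 of Gp9, although Itga2b had 55 and 59. The platelet list summed to 46.6 and 54.5 coding TPM, nearly all of it Gp1bb at 42.6 and 51.6, whose non-whole counts show that it shares reads with another gene. Lymphatic markers beside Lyve1 included Flt4 at 2.14 and 2.81 and Prox1 at 13 and 23.8, the latter also a gene of neural progenitors and neurons. In that list of 4 lymphatic and liver endothelium genes, Pdpn was highest at 30.6 and 35.5 and Stab2 lowest at 0.295 and 0.182.

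The activated postnatal genes were unequal among themselves. Spp1, which encodes the secreted phosphoprotein osteopontin, had 27.5 and 77.5 coding TPM and Lpl, the lipoprotein lipase gene that neurons also express, 16.5 and 13.3. The other members were low in both libraries. Lgals3, encoding galectin-3, had 3.62 and 2.59, Clec7a, the beta-glucan receptor dectin-1, 0.812 and 2.04 from 18 and 36 counts, and Gpnmb, a glycoprotein of phagocytes and melanocytes, 0.886 and 1.27. The class median was 3.62 and 2.59 (3.10 ± 0.729). On the log2 scale, with a pseudocount of 0.1, the microglia-enriched median exceeded the activated one by 0.74 and 1.28 in replicates 1 and 2 (mean 1.01 ± 0.38). It lay below the border median by 0.64 and 1.34 (difference -0.99 ± 0.50) and below the shared macrophage median by 0.63 and 0.73 (difference -0.68 ± 0.07). Each class median is the value of 1 gene. The microglia-enriched median was Siglech in replicate 1 (6.13) and P2ry12 in replicate 2 (6.45). That Siglech level depends on the transcript shares given above, which rest on small groups of reads. In both libraries the border median was Mrc1 and the activated median Lgals3. The sign of each difference of medians was the same in both libraries, and with n = 2 in 1 group no test of these differences was made. By class sums the activated genes were below the microglia-enriched genes in replicate 1 and above them in replicate 2. The sums were 49.3 and 96.8 coding TPM for the 5 activated genes, with Spp1 the largest part. They were 60.2 and 64.7 for the 9 microglia-enriched genes and 60.4 and 93.2 for the 5 border genes. The differences hold for the member lists only. A list of 12 further activated genes had a median of 29.7 and 26.5, above the 6.68 and 6.72 of 18 further microglial genes.

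Between the libraries, 4 of the 36 members differed, Spp1 being higher in replicate 2 and Trem2, Tyrobp and Aif1 lower. This is 4 of 36 against 10.3% of all 17544 genes tested, a share near the background, which is not a result about the members. Counts were compared by a two-sided exact binomial test after TMM scaling, and a gene was called at a Benjamini-Hochberg adjusted p under 0.05 and a ratio of at least 2-fold. It sets the reads of 1 library against the other, not 1 condition against another. Over all genes 5.43% were called higher and 4.88% lower in replicate 2, that is 952 and 857 genes. Scaled by library totals instead, which moved the median of all genes by 0.19 on the log2 scale, the split was 1299 and 648. At any fold, 9 members were higher and 7 lower in replicate 2 with an adjusted p under 0.05, against 32.0% and 33.0% of all genes. The median log2 ratio was -0.05 over the 36 members and 0 over all genes tested.

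**Figure D2:**
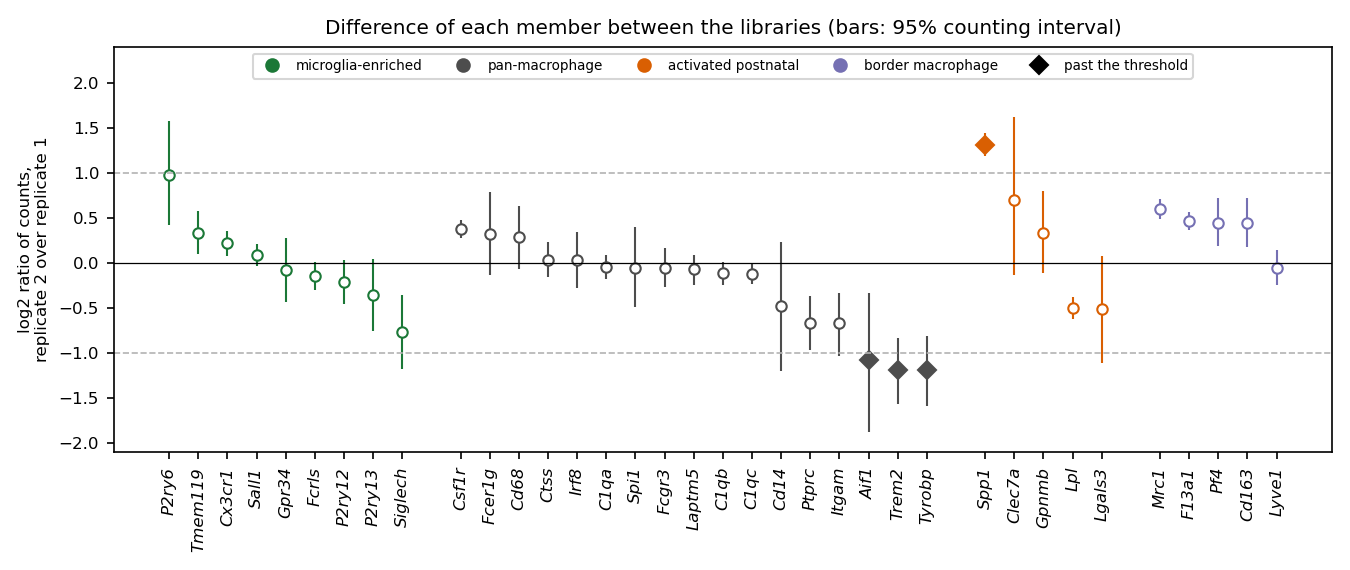
Log2 ratio of counts, replicate 2 over replicate 1, of each member with its 95% counting interval, by class; dashed lines mark 2-fold and diamonds the members past the threshold. Spp1 lies above 1, Aif1, Trem2 and Tyrobp lie below -1, and 4 of the 5 border genes lie between 0.45 and 0.60.

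Spp1 (mm10 chromosome 5, 104435118 to 104441050) had 706 counts in replicate 1 and 2131 in replicate 2. The log2 ratio was 1.31 (95% counting interval 1.19 to 1.44, exact binomial test, adjusted p = 7.7e-109), and it remained past the threshold under each of the 9 alternatives tried. None of the other activated genes passed. Their log2 ratios were 0.70 for Clec7a, 0.34 for Gpnmb, -0.50 for Lpl and -0.51 for Lgals3. Spp1 is also a major gene of bone cells, and part of the bone markers moved with it. Of 7 osteoblast genes, 6 were tested and 3 were called (Ibsp, Bglap2 and Runx2), all higher in replicate 2, and the list summed to 15.0 and 47.9 coding TPM. Ibsp, a bone sialoprotein gene, had 101 and 842 counts and Bglap2, an osteocalcin gene, 0 and 43. The tested genes that were not called had log2 ratios of 0.94 for Sp7, 0.11 for Alpl and 0.04 for Dmp1. All 4 osteoclast-list genes tested were called higher too (Acp5, Ctsk, Mmp9 and Calcr, the last also a gene of hypothalamic neurons), with sums of 16.8 and 48.1, although Ocstamp had 0 counts in both libraries. Collagen genes of fibroblasts and bone, Col1a1 and Col1a2, were called as well, at log2 ratios of 2.57 and 1.79. The part of bone or meningeal tissue in the Spp1 difference was not tested.

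Tyrobp and Trem2, receptor adaptor and receptor, were lower in replicate 2 by the same ratio. Tyrobp had 164 and 87 counts, a log2 ratio of -1.19 (interval -1.59 to -0.81, exact binomial test, adjusted p = 9e-10). Trem2 had 185 and 98 counts, also -1.19 (-1.56 to -0.83, exact binomial test, adjusted p = 6.2e-11). Aif1 had 42 and 24 counts and a ratio of -1.07 (-1.87 to -0.33, exact binomial test, adjusted p = 0.0071). Their mean transcript lengths in replicates 1 and 2 are short, at 564 nt in both for Tyrobp, 1130 and 1058 nt for Trem2 and 792 and 827 nt for Aif1. Short genes had lower ratios over the whole table. The median log2 ratio was -0.53 over 371 protein-coding genes under 700 nt, -0.39 from 700 to 1000 nt, -0.20 from 1000 to 1500 nt and 0.12 over 4000 nt. Relative to these medians the ratios were -0.66 for Tyrobp, -0.99 for Trem2 and -0.68 for Aif1, no longer 2-fold, and the part of length in these calls was not tested further. All 3 also lost the call with library totals, at -0.99, -1.0 and -0.88 in the same order. Short length did not go with a low ratio in every member. Pf4 at 586 nt had 0.45 and Fcer1g at 674 nt had 0.32, which relative to their length medians are 0.98 and 0.85.

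**Figure D3:**
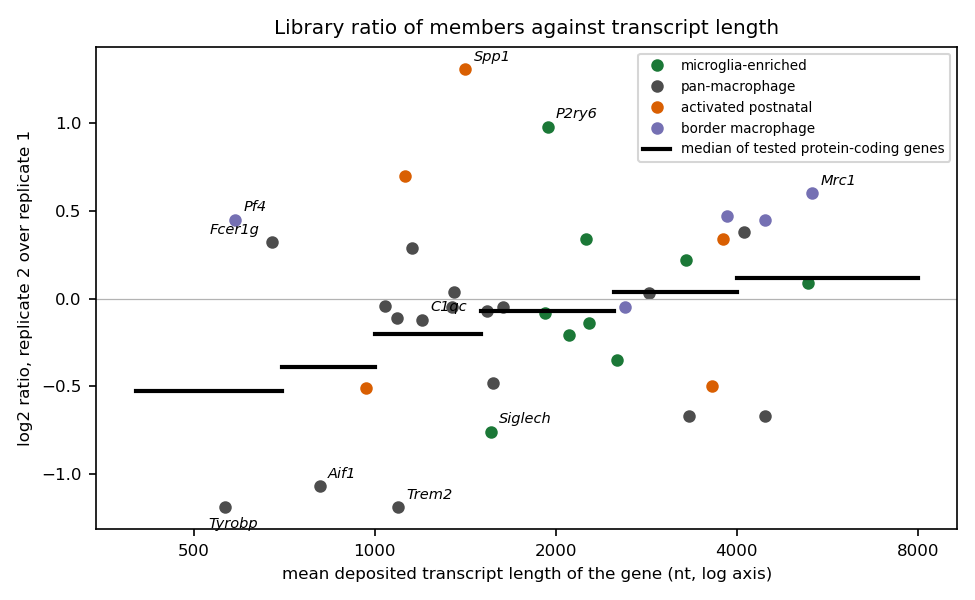
Log2 ratio, replicate 2 over replicate 1, of each member against its mean transcript length in nt (log axis); black bars are medians of the tested protein-coding genes in 6 length ranges. The bars climb from -0.53 under 700 nt to 0.12 over 4000 nt, and Tyrobp, Aif1 and Trem2 lie below them while Pf4, Fcer1g and Spp1 lie above.

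No border macrophage gene reached 2-fold, but 4 of 5 had counting intervals above 0. Mrc1 had 1084 and 1990 counts and a log2 ratio of 0.60 (0.49 to 0.71), F13a1 0.47 (0.37 to 0.57), Pf4 0.45 (0.19 to 0.72) and Cd163 0.45 (0.18 to 0.72), whereas Lyve1 had -0.05 (-0.24 to 0.15). The 4 passed the adjusted p at any fold, as did 32.0% of all genes in this direction. Of the 12 further border macrophage genes fixed beside them, 8 were tested and 4 called, beside 10.3% of all genes tested. Calls were rarer among genes averaging at least 100 counts, at 2.77%, and of these 4 only Siglec1 reached that mean. Siglec1, a sialoadhesin, went from 79 to 229 counts (log2 ratio 1.25), and Ccl24 (13 and 33 counts, 1.03) and H2-Ab1 (8 and 30 counts, 1.56) were also higher in replicate 2, while the lectin gene Clec10a was lower (36 and 17 counts, -1.34). H2-Aa, which encodes the partner chain of H2-Ab1 in MHC class II, was under the count minimum at 10 and 3 counts, as was Cd209f at 12 and 0. Stab1, the highest of that list, had 1734 and 2848 counts and a log2 ratio of 0.44 (0.35 to 0.52), under 2-fold. Its coding TPM was 22.6 and 21.1, with mean transcript lengths of 3739 and 5875 nt. Cbr2 had 89 and 58 counts and a ratio of -0.89 (-1.40 to -0.40). Meningeal fibroblast genes had a higher summed level in replicate 2, at 211 and 649 coding TPM, with 3 of 6 called and none at 0. Endothelial genes summed to 207 and 267 with 0 of 5 called at 2-fold, but 4 of 5 were higher in replicate 2 at any fold and their median log2 ratio was 0.37, beside 0.45 for the border class. Their part in the border macrophage values was not tested.

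**Figure D4:**
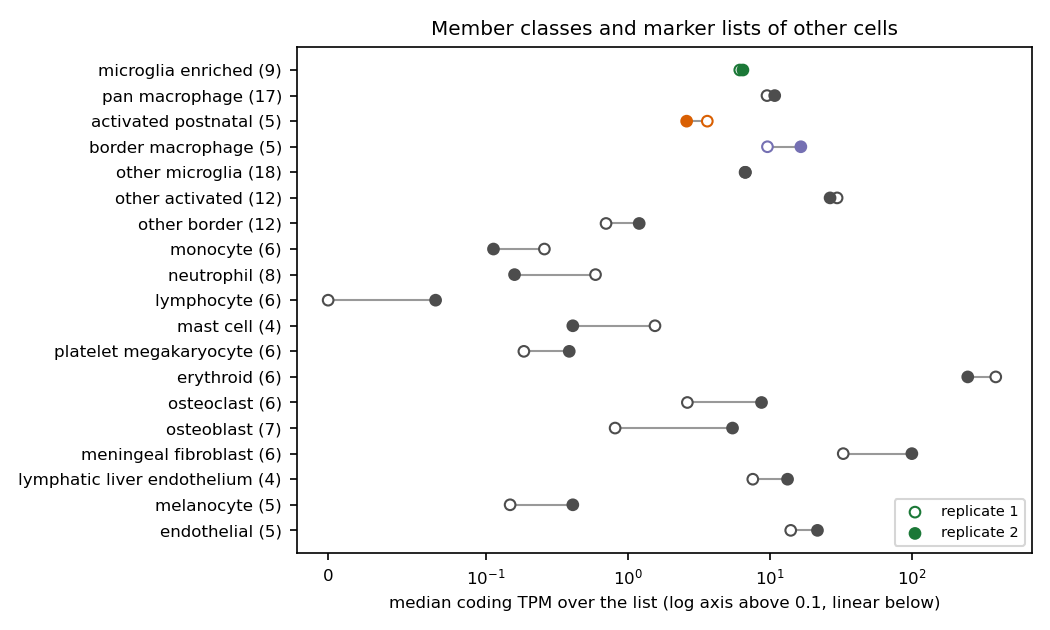
Median coding TPM of each member class and of the marker lists of other cells, with the number of genes in parentheses, in replicate 1 (open) and replicate 2 (filled); the axis is logarithmic above 0.1 and linear below. The 4 member classes lie between 2.59 and 16.5, and the monocyte, neutrophil and lymphocyte lists lie under 1 in both libraries.

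Microglia-enriched genes had a median log2 ratio of -0.08, and 0 of 9 were called, beside 10.3% of all genes tested. A list of 9 genes is too small to tell 0 calls from that share. Their ratios went from -0.76 for Siglech (-1.17 to -0.35) to 0.98 for P2ry6 (0.42 to 1.58), which was just under 2-fold and passed it with library totals (1.17) and relative to genes of its length (1.05). P2ry12 had -0.21 (-0.45 to 0.04), Fcrls -0.14 (-0.30 to 0.01) and Cx3cr1 0.22 (0.08 to 0.36). The homeostatic markers thus did not share 1 direction. In the shared macrophage class the C1q genes had -0.04, -0.11 and -0.12 for C1qa, C1qb and C1qc and Csf1r had 0.38 (0.28 to 0.48). Itgam and Ptprc, which other leukocytes also express, both had -0.67, under 2-fold. Of the neutrophil list S100a9 (30 and 5 counts) and Mpo (21 and 4) were called lower in replicate 2 and Ltf higher, with sums of 18.5 and 27.2 coding TPM over its 8 genes. All 3 mast cell genes tested were called lower as well, with Cpa3 at 46 and 15 counts and list sums of 6.13 and 1.68. Fcer1g, which mast cells also express, had a ratio of 0.32 (-0.13 to 0.79). The part of these leukocytes in the member values was not tested.

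The ligands and partners of the receptors were also measured, as 21 genes. Cx3cl1, the neuronal ligand of Cx3cr1, had 52.9 and 64.5 coding TPM and exceeded its receptor by ratios of 4.87 and 4.58. Both Csf1r ligands were below their receptor. Csf1 over Csf1r was 0.381 (bounds 0.338 to 0.517) and 0.499 (0.448 to 0.60), and Il34 over Csf1r was 0.615 (0.526 to 1.14) and 0.457 (0.282 to 0.957), so for Il34 the bounds in replicate 1 include 1. Which ligand was higher differed between libraries, Il34 over Csf1 being 1.61 (bounds 1.14 to 3.01) in replicate 1 and 0.916 (0.516 to 1.94) in replicate 2, and these bounds overlap. Apoe, a lipid carrier and Trem2 ligand made largely by astrocytes, was highest of the list at 1220 ± 226. Signals known to restrain macrophages differed in their relation to the receptors. Cd200 had 304 ± 1.90 against 0.985 ± 0.662 for its receptor Cd200r1, whereas Cd47 had 30.5 ± 1.81 against 102 ± 15.6 for Sirpa, which neurons also express. Gas6, a bridge to dying cells, had 64.5 ± 1.15 and its receptor Mertk 4.85 ± 1.43. Tgfb1, needed for microglial identity, was low at 2.24 ± 1.07, beside its receptors Tgfbr1 (45.6 ± 0.163) and Tgfbr2 (17.1 ± 5.0). Signalling genes downstream of Tyrobp were low, with Syk at 3.41 ± 1.27 and Plcg2 at 1.71 ± 0.019. Inpp5d, a phosphatase of the same pathway, had 4.28 and 24.2, a gap not matched by its log2 ratio of counts, 0.82. The integrin partner Itgb2 had 0.914 ± 0.248 and the complement receptor C3ar1 1.85 ± 0.529. In this list 2 of 21 genes were called, near the share of 10.3% over all genes tested. Both were higher in replicate 2, Cd200r1 (18 and 55 counts, 1.31) and C1ra (13 and 73 counts, 2.17). The C1ra count of replicate 2 had a posterior SD of 8.51.

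Transcript estimates were stable for part of the members. Only 10 of the 36 had 1 annotated transcript, among them C1qa, C1qb, Tyrobp and Pf4. Of the other 26, 22 had the same leading transcript in both libraries, and in 7 it held at least 90% of the gene's TPM in both. P2ry12-202 held 98.0 and 100%, Mrc1-201 100 and 97.6%, and Cx3cr1-202 76.9 and 76.1% in replicates 1 and 2. Csf1r-201 held 75.81 and 66.01%, the rest going to Csf1r-202, which is longer. Trem2-201 held 58.8 and 66.9%, with further shares on a transcript of 1056 nt, Trem2-202, at 27.1 and 12.5%. The leading transcript differed in Siglech, Ptprc, Itgam and Cd163. All 188 Cd163 counts of replicate 1 went to Cd163-202 and all 311 of replicate 2 to Cd163-201, transcripts of 4492 and 4409 nt, with posterior SDs of 28.0 and 14.1 counts. For Ptprc, which encodes CD45 with its alternatively spliced exons, Ptprc-203 held 70.7 and 42.6% and Ptprc-204 0 and 54.2%. The posterior SD of those transcripts was 14.6 to 18.7 counts.

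**Figure D5:**
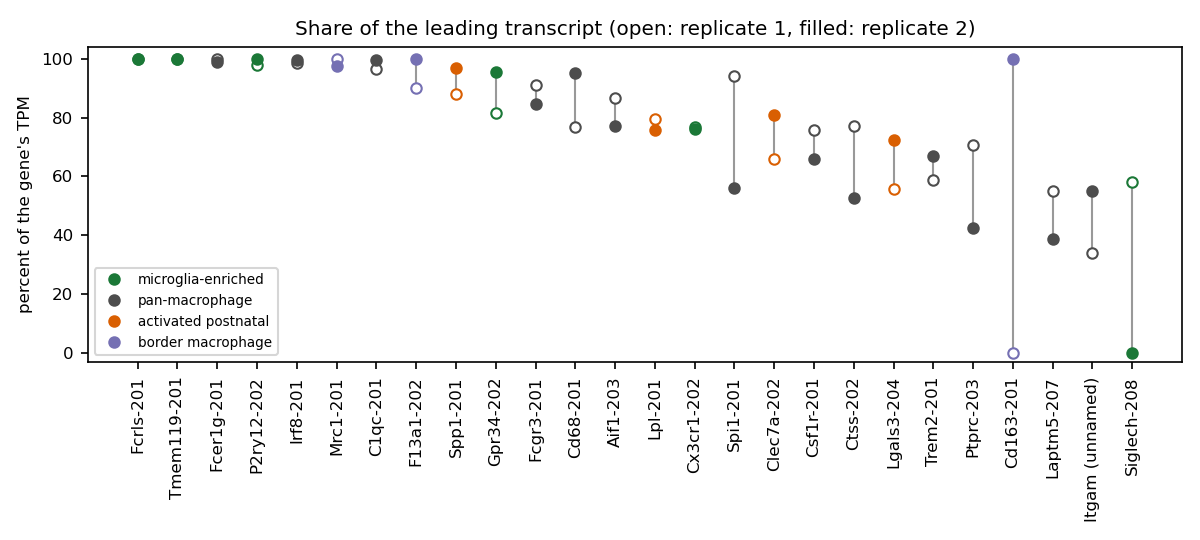
Share of each gene's TPM held by its leading transcript, in percent, for the 26 members with several annotated transcripts, in replicate 1 (open) and replicate 2 (filled). Shares are close to 100% and nearly equal on the left, and Cd163 and Siglech go to 0% in 1 library.

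A few reads on short transcripts moved some gene levels. In replicate 2, 5.29 counts on Spi1-203 of 402 nt held 44.1% of the TPM of Spi1, the gene of the lineage factor PU.1. Without transcripts under 500 nt Spi1 had 2.14 and 2.09 coding TPM in place of 2.14 and 3.72, and the 80 and 94 counts gave a log2 ratio of -0.05. Likewise 2.77 counts on Itgam-204 of 338 nt held 44.6% of the TPM of Itgam in replicate 1, and without such transcripts Itgam had 1.70 and 1.32 in place of 3.10 and 1.36. Laptm5 went from 17.0 and 24.6 to 15.8 and 17.9. For these 3 genes the gap between libraries was smaller without the short transcripts.

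Promoters were examined for the core of the binding motif of PU.1, the factor encoded by Spi1 that macrophage genes are known to depend on. RefSeq windows (build GRCm38.p6, 250 bases before to 50 after each start) matched 26 of the 36 members by symbol, and Lpl, Lyve1, C1qa, Csf1r, Tmem119, P2ry6, Tyrobp, Gpr34, Cd14 and Spi1 were not matched. The letters GAGGAA, on either strand, were found for 18 of 26 members (69.2%) and for 31.3% of all 27025 genes with a window. By class they were found for 10 of 12 shared macrophage genes, 3 of 4 border genes, 2 of 4 activated genes and 3 of 6 microglia-enriched genes. The longer form GAGGAAGT, which contains the shorter one, was found for 5 members (19.2%, against 3.69% of all genes), namely C1qc, Ctss, F13a1, Pf4 and Spp1. These matches describe letters and not binding, and some genes have several windows. The stretches below, before the start and outside annotated exons, show the letters in a gene of each class, with capitals marking GAGGAA or GAGGAAGT or their reverse complements TTCCTC and ACTTCCTC. They were chosen after the matches were seen, for genes described above.

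P2ry13 (chr3:59210883-59211132, minus strand): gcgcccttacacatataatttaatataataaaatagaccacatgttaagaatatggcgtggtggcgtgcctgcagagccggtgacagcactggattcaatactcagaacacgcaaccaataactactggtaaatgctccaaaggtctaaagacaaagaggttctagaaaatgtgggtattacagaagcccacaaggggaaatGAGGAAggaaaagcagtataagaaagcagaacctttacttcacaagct

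C1qb (chr4:136886201-136886450, minus strand): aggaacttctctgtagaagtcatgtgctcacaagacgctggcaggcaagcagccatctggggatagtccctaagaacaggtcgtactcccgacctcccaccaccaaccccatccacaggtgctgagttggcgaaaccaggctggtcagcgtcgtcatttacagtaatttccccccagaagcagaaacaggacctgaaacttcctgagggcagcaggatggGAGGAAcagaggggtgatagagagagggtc

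Trem2 (chr17:48346151-48346400, plus strand): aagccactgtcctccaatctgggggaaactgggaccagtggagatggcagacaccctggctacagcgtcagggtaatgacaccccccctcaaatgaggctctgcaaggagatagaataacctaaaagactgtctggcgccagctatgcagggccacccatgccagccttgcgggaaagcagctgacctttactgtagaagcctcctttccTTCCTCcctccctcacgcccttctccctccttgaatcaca

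Mrc1 (chr2:14229164-14229391, plus strand): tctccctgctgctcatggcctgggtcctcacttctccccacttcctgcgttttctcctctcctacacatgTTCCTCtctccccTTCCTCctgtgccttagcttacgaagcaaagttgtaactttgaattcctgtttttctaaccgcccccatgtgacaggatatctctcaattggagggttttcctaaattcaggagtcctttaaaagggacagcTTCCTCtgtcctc

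Pf4 (chr5:90772185-90772434, plus strand): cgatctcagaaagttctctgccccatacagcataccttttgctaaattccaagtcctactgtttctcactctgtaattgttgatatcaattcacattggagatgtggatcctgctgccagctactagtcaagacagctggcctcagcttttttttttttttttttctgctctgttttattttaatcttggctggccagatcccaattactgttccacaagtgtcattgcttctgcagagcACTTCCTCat

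Spp1 (chr5:104434861-104435110, plus strand): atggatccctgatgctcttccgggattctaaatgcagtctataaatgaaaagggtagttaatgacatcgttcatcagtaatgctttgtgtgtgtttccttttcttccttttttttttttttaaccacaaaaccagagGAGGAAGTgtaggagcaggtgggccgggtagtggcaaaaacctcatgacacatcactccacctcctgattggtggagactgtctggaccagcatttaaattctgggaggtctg

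In Mrc1 the letters occur 3 times, and in Pf4 the match begins 10 bases before the start, in Trem2 40, in C1qb 30, in P2ry13 48 and in Spp1 113.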

How the data were processed

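The authors deposited gene and transcript tables of each library on mm10 with GENCODE M4, quantified per library and not pooled, per the labels and the text supplied with the samples. Which aligner and quantifier were run is not given in the sources used here. The deposited expected counts are estimates of fragments per feature, with posterior mean counts, and the deposited posterior SD is a score of the error of each count. The deposited TPM covers all features including spike-ins, the deposited bounds of TPM were used as scores, FPKM values deposited by the authors served 1 alternative, and the deposited isoform values are the percent of a gene's TPM.

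Symbols and coordinates came from GENCODE M21 on the same assembly, which matched 42462 of 43346 genes by identifier. The 26248 tRNA rows, all at 0, and 97 spike-in rows were left out. Clec7a is annotated there as a polymorphic pseudogene. Coding TPM is TPM multiplied by 7.38 in replicate 1 and 4.54 in replicate 2. Expected counts were rounded. TMM factors came from edgeR 4.0.16 and alternative size factors from DESeq2 1.42.0 (R 4.3.3). The binomial test with Benjamini-Hochberg adjustment covered the 17544 genes averaging 10 or more counts, with the smaller tail doubled and 0.5 added to each count for ratios. Its code was run on simulated counts that held counting error only. That run cannot show how the test behaves when libraries vary beyond counting error. Intervals are 95% Clopper-Pearson. edgeR's quasi-likelihood test has no residual degrees of freedom for single libraries and was not used. Mean fragment lengths implied by the tables were 248.7 and 269.7 nt. The rest was done in Python 3.11.15 (scipy 1.17.1, pandas 2.3.3, numpy 2.4.6, matplotlib 3.10.9).

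The members, lists and tests were chosen with earlier results of these data known. The rule for named genes took all members, every ligand-list gene and, of each other list, the 2 highest by mean coding TPM, the lowest and any called gene. Of lists for other cell types only genes beside a member's result are printed. Itgax, Igf1, Itga2b, Ppbp, Gp9, Ccr2, S100a8, Flt4 and Prox1 were picked after their values were seen where the rule does not take them. Alternatives were other level thresholds, deposited and posterior mean TPM, FPKM, a protein-coding sum without mitochondrial genes, pseudocounts, other scalings, filters and folds, counts from the posterior mean, the posterior SD added to the error, and leaving out each replicate. Ratios relative to genes of like length and levels without transcripts under 500 nt were added after seeing the data. Protein sequences were not used here, and some genes of the marker lists are not reported here.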

Additional observations from a re-analysis of the deposited data

How the results depend on the processing

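The number of members at the level threshold in both libraries was 34, and it was 22 at 5 coding TPM and 19 at 1 deposited TPM, whose total includes genes that do not code for protein. It was 34 to 36 when either replicate was left out. The median of the microglia-enriched class moved from 6.29 to 6.58 without mitochondrial genes in the sum. Calls among members, 1 higher and 3 lower in replicate 2, became 2 and 0 with library totals, 2 and 0 relative to genes of like length, and 3 and 6 at 1.5-fold. The median log2 ratios of the microglia-enriched and shared macrophage classes, -0.08 and -0.07, became 0.12 and 0.12 with library totals, and the latter became 0.02 relative to genes of like length. Over all 36 members the median of -0.05 became 0.05 relative to genes of like length, and 9 members changed sign with library totals. The log2 TPM ratio of Tyrobp over Trem2 moved from 1.28 to 1.20 and that of Il34 over Csf1r from -0.92 to -0.58 with posterior mean TPM. The cause was not tested. Over all genes, the 1809 calls became 3434 at 1.5-fold, 379 with at least 100 counts and 1097 over protein-coding genes, the last 2 with fewer genes tested. No paired analysis was possible because the libraries form 1 group. Low counts limit Clec7a, Aif1, Cd14, P2ry6 and Lgals3, each under 50 counts in at least 1 library.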

Other observations

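Further microglial genes outside the member list were also present. Of 18 such genes, 14 reached 1 coding TPM in both libraries and the median was 6.70 ± 0.0258 (SD, n = 2 libraries). Cst3, a cystatin gene that astrocytes also express, was highest at 554 ± 110, followed by the legumain gene Lgmn at 80.9 ± 5.36, and Cd33 was lowest at 0.551 ± 0.265. Between the libraries 2 of 18 were called, near the share of 10.3% over all genes tested. Ltc4s, of leukotriene synthesis, was higher in replicate 2 (13 and 48 counts, log2 ratio 1.57). Cd33, a sialic acid-binding receptor gene, was lower (38 and 19 counts, -1.26).

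Further genes of activated microglia ranged widely. Fabp5, a fatty acid binding protein gene also of neural precursors, had 548 ± 109 coding TPM and the protease gene Ctsb had 133 ± 3.21, while the chemokine gene Ccl4 had 0 counts in both libraries, which allows up to 3. Itgax, the CD11c gene that marks the early postnatal state, had 16 and 19 counts. Igf1, a growth factor of that state, had 9.01 and 11.1. Of the 11 genes tested 2 were called, beside 10.3% of all genes tested. Both were lower in replicate 2, the tetraspanin gene Cd63 (-1.26) and the chemokine gene Ccl3 (18 and 7 counts, -1.58). The mean transcript length of Cd63 was 898 nt in replicate 1, and its ratio relative to genes of like length was -0.87.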
